A study of Mus musculus with 6 samples.

Results

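KPC142 is 1 of 6 mouse pancreatic ductal adenocarcinoma (PDAC) cell lines whose polyadenylated RNA was sequenced, each as a single library. It is described here against the other 5, KPC180, KPC469, KPC490, KPC630 and KPC850. All 6 carry the strain label KPC, the usual name of mice engineered to develop pancreatic tumours, and none of the labels names a treatment, an age, a culture condition or a cloning step. The study sequenced lines that draw few or many CD8+ T cells into their tumours, but the labels do not say to which kind KPC142 belongs, so none of the values below is tied to infiltration. The genes described are those on the autosomes that reached 10 CPM (a count scaled to its library's total) in any line and lay in KPC142 at least 4-fold above the highest, or at least 4-fold below the lowest, of the other 5 lines. Of 9875 autosomal genes at that level, 74 did so. With 1 library per line there is no replicate and no test, so every difference is between these libraries, and the intervals beside ratios are exact conditional binomial 95% intervals that cover counting error only.

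Several of these genes belong to well-known systems. Cadherins are surface proteins that hold neighbouring cells together, and kindlins and integrins hold cells to the matrix. Planar cell polarity proteins, among them the Celsr, Vangl and Ptk7 proteins, orient cells within a sheet. The integrated stress response raises the translation of the transcription factor ATF4 when amino acids run short or the endoplasmic reticulum is overloaded, and ATF4 then turns on genes of amino acid synthesis and import. The unfolded protein response of the endoplasmic reticulum adds chaperones and folding enzymes.

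The split of the 74 genes depends on the level asked for, which a lower gene meets through another line and a higher gene must meet in KPC142. KPC142 stood at least 4-fold above all other lines for 6 genes, 0.0608% of those at the level, and at least 4-fold below them for 68, or 0.689%. Of the 6 lines it had the fewest such higher genes and the second most lower ones: KPC469 had 79 higher and 74 lower, KPC180 had 22 and 57, KPC850 had 18 and 30, KPC490 had 20 and 10, and KPC630 had 16 and 10. When all genes holding 1 count or more were taken, the order turned, with 138 higher and 103 lower. KPC142 was the highest of the 6 lines for 1796 genes (18.2%) and the lowest for 2190 (22.2%). At 2-fold the counts for KPC142 were 53 higher (0.537%) and 180 lower (1.82%). Both counts depended on single comparison lines. The higher genes numbered 16 without KPC469, 12 without KPC490, 11 without KPC180, 10 without KPC850 and 7 without KPC630. The lower genes numbered 101 without KPC180, 99 without KPC469, 91 without KPC850, 76 without KPC490 and 73 without KPC630. All 74 genes are annotated as protein coding. Library totals ran from 16471558 counts, in KPC142, to 18701274, and 1 count in KPC142 was worth 0.0599 CPM.

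The labelled cell type was checked against its markers. KPC142 had abundant RNA of the ductal keratins Krt8 (3336 CPM, 843 to 4179.9 in the other lines) and Krt19 (2111, 837 to 2755) and of E-cadherin, Cdh1 (510.4, 298 to 767). The ductal transcription factor gene Sox9 was at its lowest there, at 4.55 CPM against 10.01 to 43.4, and the chloride channel gene Cftr was at 0.959 CPM. Epcam, an epithelial adhesion gene, was low in all 6 lines, at most 10.5 CPM. Fibroblast, endothelial and lymphocyte markers were sparse in KPC142: the sums over 12 fibroblast, 9 endothelial, 10 T and NK cell and 7 B cell markers were 1.02, 0.659, 0.839 and 0.0599 CPM. The 11 myeloid markers summed to 65.9 CPM, within the 30.99 to 141.9 CPM of the other lines. Markers of other epithelia were present: 11 intestinal markers summed to 1393 CPM (563 to 2001 in the other lines), 9 hepatocyte markers, mostly Apob, to 168 (26.1 to 2063) and 13 kidney tubule markers to 164 (19.7 to 181). Since these are bulk libraries, fewer cells making an RNA and less of it per cell cannot be told apart.

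**Figure D1:**
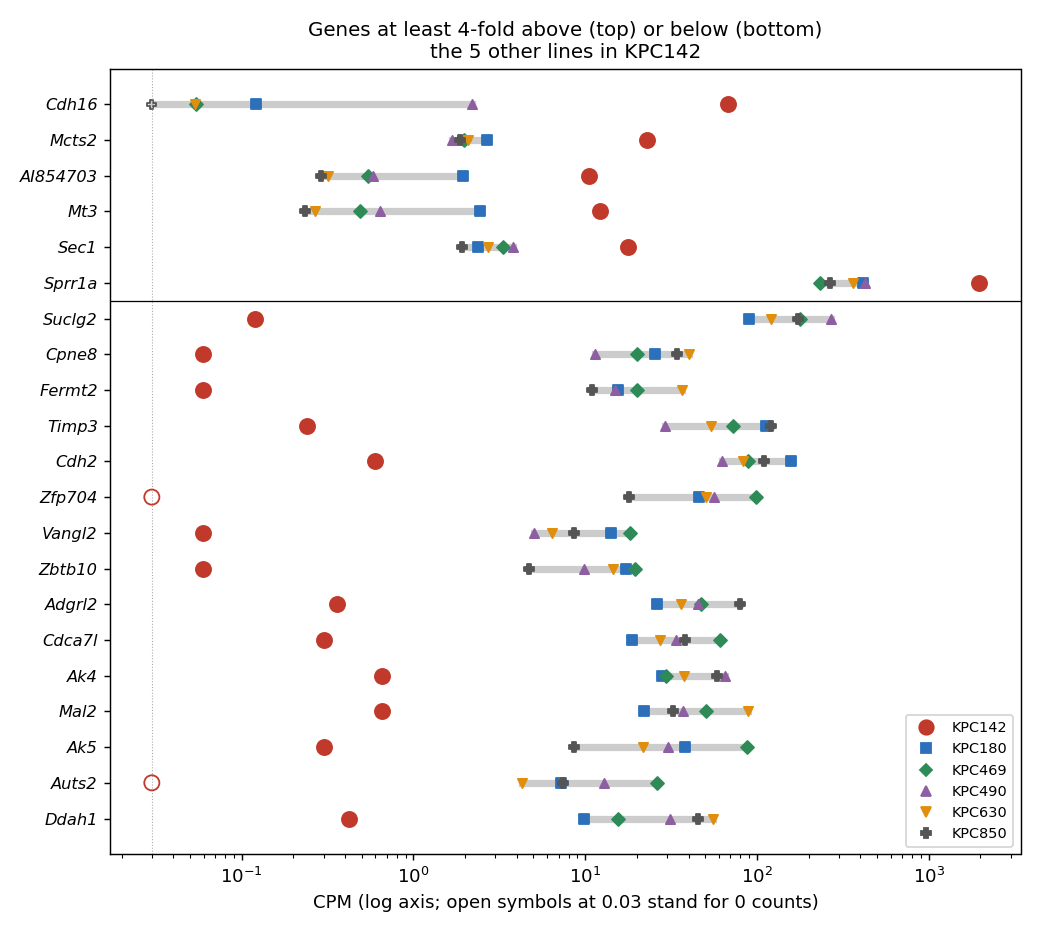
Level of each gene in CPM, on a log axis, in the 6 lines: the 6 higher genes of KPC142 above the rule and the 15 lower genes with the largest ratios below it. Grey bars span the 5 other lines, and open symbols at the left edge stand for 0 counts. KPC142 is to the right of every other line in the upper block and to the left in the lower one.

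Of the 6 higher genes, the cadherin gene Cdh16 stood out by ratio. Cdh16 (ENSMUSG00000031881, chromosome 8), known as the cadherin of kidney tubules, had 67.6 CPM in KPC142 from 1128 counts. In the other lines, given here and below in the order KPC180, KPC469, KPC490, KPC630 and KPC850, it had 0.121, 0.0545, 2.21, 0.0532 and 0 CPM. The groups were far apart: KPC142 exceeded KPC490, the next line, 30.6-fold (interval 22.2 to 43.5), and the remaining 4 lines had 2 counts or fewer. Without KPC490 the log2 ratio to the nearest line was 9.12 in place of 4.94. Its neighbours on the chromosome did not share this: Pdp2 had 28.4 CPM against 14.4 to 46.5 elsewhere, and Ciao2b 28.6 against 19.5 to 34.05. Of 13 kidney tubule markers, 4 reached the level, of which 2 were highest in KPC142 and 2 lowest, too few to set against the 18.2% and 22.2% of all genes. The highest were Cdh16 and Cubn, the gene of the endocytic receptor cubilin, at 77.3 CPM against 29.9, 1.96, 8.25, 15.9 and 23.4. Lrp2, whose product megalin works with cubilin, was among the lowest, at 0.2397 CPM against 0.697 to 120.3, and 4 of the 13 markers had 0 counts.

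Each of the other 5 higher genes had under 4 CPM in every other line, except Sprr1a. Mcts2 (chromosome 2), a retrogene copy of Mcts1 inside an intron of H13 and known for being expressed from the paternal allele, had 22.8 CPM against 2.67, 1.96, 1.68, 2.08 and 1.87. The 5 other lines lay close together, and KPC142 was 8.53-fold above the highest of them (interval 6.23 to 11.9). Reads of Mcts2 and of the surrounding H13 lie on the same strand, and H13 itself did not stand out, with 162 CPM against 156 to 216. Mcts1, on the X chromosome, had 18.7 CPM against 12.5 to 25.5.

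Sprr1a (chromosome 3), a cornified envelope protein of stratified and injured epithelia, had 1965 CPM against 414, 231, 424, 360.2 and 265. It exceeded every other line, with 4.63-fold over the next and a narrow interval of 4.51 to 4.75. Its family members Sprr1b, Sprr2a1 and Sprr3 were at 1.14 CPM or less in KPC142.

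Mt3 (chromosome 8), a metal-binding metallothionein best known from brain, had 12.2 CPM against 2.43, 0.4904, 0.639, 0.266 and 0.233, 5.01-fold above KPC180 (interval 3.56 to 7.22). The adjacent Mt1 and Mt2 were also highest in KPC142 but by less: Mt1 had 112 CPM against 60.7, 31.7, 88.2, 21.2 and 66.8, and Mt2 54.6 against 22.6, 9.04, 52.9, 13.9 and 33.2. KPC490 was next for both, within 1.27-fold for Mt1 and 1.03-fold for Mt2. Sec1 (chromosome 7), a fucosyltransferase gene that overlaps Ntn5 on the opposite strand, had 17.9 CPM against 2.37, 3.32, 3.78, 2.72 and 1.92, and AI854703 (chromosome 6) had 10.5 against 1.94, 0.545, 0.581, 0.319 and 0.291. Their ratios to the next line were 4.73 (interval 3.61 to 6.29) and 5.43 (interval 3.71 to 8.18). The lower bound of the interval stayed at 4-fold or more for 3 of the 6, Cdh16, Mcts2 and Sprr1a.

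The 68 lower genes ran from a 4.05-fold to a 754-fold ratio, with a median of 7.38. Most were close to silent in KPC142: 43 were under 1 CPM, 17 between 1 and 5, and 8 at 5 CPM or above, and 8 had 0 counts. The ratio was 20-fold or more for 15 genes and 10-fold or more for 23, and 28 of the 68 had at least 10 CPM in all 5 other lines. For 38 the lower bound of the interval was itself 4-fold or more. The lowest of the other lines was KPC850 for 23 genes, KPC180 for 18, KPC469 for 13, and KPC490 and KPC630 for 7 each.

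**Figure D2:**
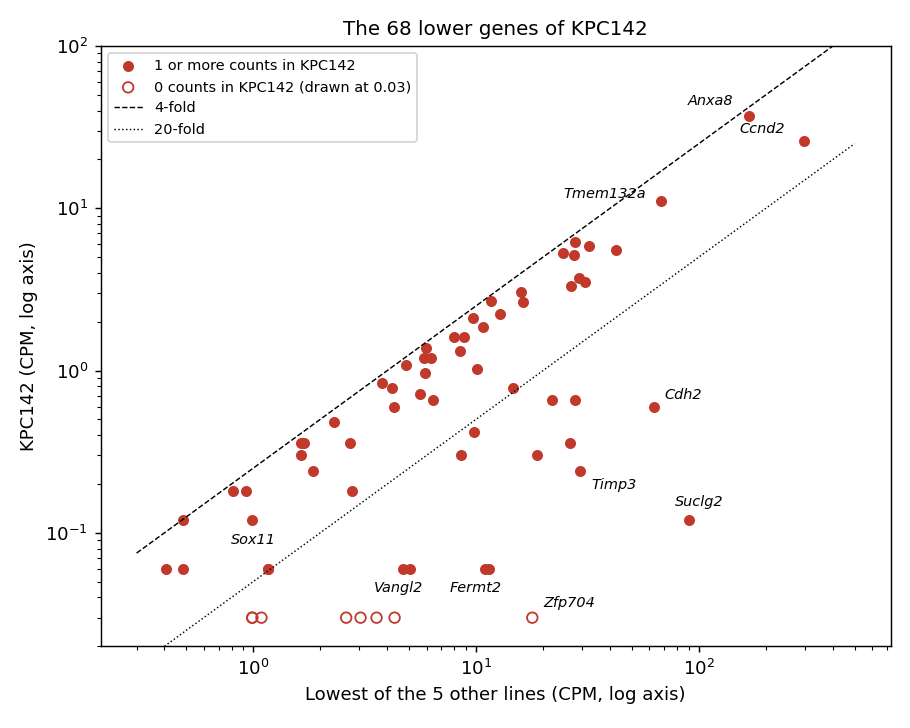
Each point is 1 of the 68 lower genes, with its CPM in the lowest of the 5 other lines on the horizontal axis and its CPM in KPC142 on the vertical axis, both log scales. Lines mark 4-fold and 20-fold, and open points stand for 0 counts in KPC142. Suclg2 lies farthest below the lines, and Anxa8 and Ccnd2 lie at the upper right, above 20 CPM in KPC142.

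Among 11 metabolic enzymes, Suclg2 had the largest ratio of all genes. Suclg2 (ENSMUSG00000061838, chromosome 6), the GDP-forming beta subunit of succinyl-CoA ligase in the TCA cycle, had 2 counts (0.1198 CPM) in KPC142 against 90.3, 177, 269, 121 and 172 CPM in the others. No other line came near it: the lowest, KPC180, was 754-fold higher (interval 208 to 6228). The partner subunits of the same enzyme were at levels near those of the other lines. Suclg1, the alpha subunit, had 106 CPM against 106, 87.8, 150.2, 131 and 101, inside the range of the others. Sucla2, the ATP-forming beta subunit, had 51.5 CPM against 60.3, 75.4, 62.1, 79.8 and 58.7, the lowest of the 6 by 1.14-fold. Of 24 TCA cycle genes at the level, 7 were highest in KPC142 and 4 lowest, against 18.2% and 22.2% of all genes. The median over these genes of the log2 ratio of KPC142 to the median of the other 5 lines, with 0.5 CPM added to both, was 0.12, and Suclg2 alone passed 2-fold in the lower direction. A copy, Gm15163, is 98.9% identical over 1302 bases, and it had 0 counts in KPC142, so no reads of KPC142 were listed under it.

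Both genes of 1 small family and part of another were among the 68. Ddah1 and Ddah2 encode the dimethylarginine hydrolases, which break down inhibitors of nitric oxide synthesis. Ddah1 (chromosome 3) had 0.419 CPM against 9.83, 15.5, 31.2, 55.3 and 45.5, and Ddah2 (chromosome 17) had 1.62 against 19.9, 25.9, 9.58, 28.8 and 7.93. Every other line was above KPC142, by 23.4-fold or more for Ddah1 (interval 11.1 to 59.2) and 4.9-fold for Ddah2 (interval 3.22 to 7.71). Adenylate kinases balance ATP, ADP and AMP. Ak4 (chromosome 4), a mitochondrial member, had 0.659 CPM against 27.9, 29.5, 65.3, 37.4 and 58.4, and Ak5 (chromosome 3) had 0.2996 against 38.1, 86.9, 30.2, 21.7 and 8.57, ratios of 42.3 (interval 23.4 to 85.3) and 28.6 (interval 11.98 to 89.4). Ak3 and Ak6 lay inside the range of the other lines. Ak4 has a copy that is 99.6% identical, Ak3l2-ps, listed at 0 counts in every line.

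Aldh1a3 (chromosome 7), which makes retinoic acid, had 2.097 CPM against 18.7, 77.7, 125, 9.69 and 18.01. It varied widely among the others, with KPC490 and KPC469 high and KPC630 nearest to KPC142, at 4.62-fold (interval 3.204 to 6.84). The remaining enzymes were Pank1 of coenzyme A synthesis, Mboat2 of phospholipid remodelling, Casd1 of sialic acid acetylation, the guanosine monophosphate reductase gene Gmpr and the sphingomyelinase-like Smpdl3b, with ratios of 4.49 to 6.81. Pank1 rests on 1 count in KPC142 and on KPC850, which was also low at 0.408 CPM, and its interval (0.875 to 307) includes 1.

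Genes of adhesion, matrix and the surface made up a second group. Cdh2 (ENSMUSG00000024304, chromosome 18), N-cadherin, had 0.599 CPM in KPC142 from 10 counts, against 157, 89.1, 62.8, 82.4 and 109.5. All 5 other lines had at least 62.8 CPM, 105-fold more (interval 56.8 to 219), while E-cadherin was within their range. Clstn1 (chromosome 4), a calsyntenin of the cadherin superfamily, had 1.198 CPM against 33.1, 33.2, 10.4, 41.4 and 6.295, with KPC850 the nearest line at 5.25-fold. The desmosomal cadherin gene Dsc2, on the same chromosome as Cdh2, was also lowest in KPC142, at 0.3595 CPM against 1.34, 5.72, 13.4, 29.3 and 28.7, short of the 4-fold rule. Over 21 cadherin superfamily genes at the level, 2 were highest in KPC142, Cdh16 and Celsr1, and 5 were lowest. Among all 9875 genes the shares were 18.2% and 22.2%, and the list's median log2 ratio was -0.60 against -0.02 over all genes. That median moved between -0.95 and -0.22 over the alternative settings.

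Fermt2 (chromosome 14), kindlin-2, which activates integrins, was down to 1 count in KPC142 (0.0599 CPM) against 15.5, 19.9, 14.9, 36.4 and 11.02 CPM. KPC850 was nearest at 184-fold, with a wide interval of 32.6 to 7299.9 because of that single count. Fermt1, the kindlin of epithelia, was well inside the range of the others at 73.1 CPM against 23.7 to 151. Of 23 integrin and laminin genes, 3 (13%) were highest and 4 (17.4%) lowest in KPC142, both below the 18.2% and 22.2% of all genes. Itga3 was the lowest of them by ratio, at 298 CPM against 646, 1300.3, 705, 1239.7 and 1023, and Itgb1 was highest at 1215 against 1118, 952, 499.7, 546 and 471.

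Timp3 (ENSMUSG00000020044, chromosome 10), an inhibitor of metalloproteinases that stays bound to the matrix, had 4 counts (0.2397 CPM) against 113, 72.4, 29.3, 53.8 and 120.3 CPM. The nearest line, KPC490, was 122-fold higher (interval 47.5 to 451). Timp2 had 282 CPM, inside the 192 to 947 of the others. Of 19 matrix protease and inhibitor genes, 0 were highest in KPC142 and 6 (31.6%) lowest, against 18.2% and 22.2% of all genes, with a median log2 ratio of -0.54. The other surface and junction genes among the 68 were Adgrl2, Ildr2, Antxr1, Gja1, Tpbg, Igsf23, Edil3, Dtna and the aminopeptidase gene Anpep. Adgrl2 (chromosome 3), the adhesion receptor latrophilin 2, had 0.3595 CPM against 26.3, 46.9, 45.5, 36.1 and 79.5, a 73.3-fold gap to KPC180 (interval 33.4 to 201). Gja1, the gap junction protein connexin 43, had 3.72 CPM against 29.1 to 71.8, 7.83-fold (interval 6.01 to 10.4). Ildr2, with 0 counts, spanned 3.58 to 197 CPM elsewhere and lay at least 19.9-fold below KPC180. Enah, Palld and Dbn1, 3 regulators of actin filaments, had 3.296, 5.81 and 6.23 CPM, 4.49-fold to 8.12-fold below the lowest other line. Vasp, a relative of Enah, was highest in KPC142 at 269 CPM against 131 to 247, and Evl, another, was lowest at 8.75 against 22.3 to 57.05. Reads of Enah could be shared with 52 genes whose transcripts match it in part, so its level is uncertain.

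Planar cell polarity genes were found at both ends in KPC142, as shares of the list close to those of all genes. Vangl2 (chromosome 1) had 1 count (0.0599 CPM) against 14.1, 18.2, 5.05, 6.39 and 8.63 CPM, a ratio of 84.3 to KPC490 (interval 14.7 to 3369). Ptk7 (chromosome 17), a co-receptor of the pathway, had 1.62 CPM against 77.4, 35.9, 22.6, 29.8 and 8.86, with KPC180 high and KPC850 the nearest line at 5.48-fold (interval 3.62 to 8.58). Celsr1 (ENSMUSG00000016028, chromosome 15), the cadherin of the core complex, was instead highest in KPC142, at 139.8 CPM against 3.03, 74.97, 37.9, 104 and 29.96. KPC630 was close behind, so the ratio to the next line was 1.35 (interval 1.27 to 1.43), and the gap to KPC180 was far larger. Vangl1, the paralog of Vangl2, had 33.1 CPM, inside the 26.3 to 45.1 of the others, and Celsr2 had 2.46 against 1.69 to 14.6. Of 14 genes of this list at the level, 3 (21.4%) were highest in KPC142 (Celsr1, Fzd6 and Dvl1) and 4 (28.6%) lowest (Vangl2, Ptk7, Dvl2 and Dvl3), against 18.2% and 22.2% of all genes. The median log2 ratio was -0.24, or 0.01 without KPC630.

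Among 10 regulators of transcription and RNA, 4 were lower by 10-fold or more. Zfp704 (ENSMUSG00000040209, chromosome 3), a zinc finger protein, had 0 counts in KPC142 against 46.2, 98.6, 56.2, 50.3 and 17.9 CPM. Against a floor of 3 counts in KPC142 (0.180 CPM) it was at least 99.5-fold lower than in KPC850, the nearest line, and without KPC850 the log2 ratio to the nearest line went from -6.64 to -8.01. Its neighbour Zbtb10, a zinc finger repressor, had 1 count (0.0599 CPM) against 17.3, 19.5, 9.87, 14.4 and 4.72 CPM, a ratio of 78.8 (interval 13.7 to 3150.2). Cdca7l (chromosome 12), a MYC-interacting nuclear protein, had 0.2996 CPM against 18.7, 61.3, 33.8, 27.3 and 38.1, 62.4-fold (interval 26.4 to 194). Auts2 (chromosome 5), a neurodevelopmental chromatin regulator, had 0 counts against 7.22, 26.04, 12.8, 4.31 and 7.46 CPM and was at least 23.99-fold lower.

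Foxa1 (chromosome 12), a pioneer factor of endoderm, had 3.06 CPM against 45.6, 16.9, 69.6, 15.97 and 17.95, with KPC490 and KPC180 highest and KPC630 nearest at 5.23-fold (interval 3.87 to 7.18). Its paralog Foxa2 was unremarkable, at 74.8 CPM against 64.9 to 98.9. Sall2, Mex3a and Zfp422 were 4.602-fold to 9.96-fold lower, and each had at least 10 CPM in every other line. Sox11 and Trps1 rest on 2 counts each, and their intervals reach down to 1.96 and 0.808, since KPC850 or KPC180 was also low.

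The cell cycle gene among the 68 was Ccnd2 (chromosome 6), cyclin D2. It had 26.1 CPM in KPC142 from 435 counts, against 298, 359, 664, 361 and 426. The 5 other lines lay between 298 and 664 CPM, and the 11.4-fold gap had a narrow interval of 10.4 to 12.6. Ccnd1, cyclin D1, had 842 CPM against 1546, 913, 843, 1191 and 1493, level with KPC490 at the low end. Ccnd3 had 73.5 CPM, inside the 54.7 to 82.7 of the others. Of 33 cell cycle genes at the level, 4 were highest in KPC142 and 9 lowest, close to the shares of all genes, and the median log2 ratio was 0.03.

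Genes of membrane transport and trafficking formed a group of 14. Cpne8 (chromosome 15), a calcium-dependent phospholipid-binding copine, had 1 count (0.0599 CPM) against 25.4, 19.996, 11.4, 39.98 and 34.3 CPM, a ratio of 191 (interval 33.9 to 7579.8). Cpne1, Cpne2 and Cpne3 were each highest in KPC142, by 1.04-fold to 1.19-fold. Mal2 (chromosome 15), a protein of transcytosis in polarised epithelial cells, had 0.659 CPM against 22.03, 50.4, 36.997, 88.8 and 32.4, 33.4-fold (interval 18.5 to 67.5). Anxa8 (chromosome 14), an annexin, kept 621 counts (37.2 CPM) against 167, 501, 243, 334 and 217, 4.4997-fold (interval 4.12 to 4.92). Clca3a1 (chromosome 3), of the chloride channel accessory family, had 4 counts (0.2397 CPM) against 76.1, 6.05, 4.298, 4.42 and 1.87, with KPC180 far above the rest. The nearest line, KPC850, was 7.78-fold above KPC142 (interval 2.76 to 30.3). The paralog Clca3a2 is 96.2% identical, so reads could be split between the 2 genes. Few were listed under Clca3a2, at 0.180 CPM in KPC142 and at most 1.16 CPM in any line. The phospholipid flippase genes Atp11a and Atp8b1 were 7.69-fold and 9.76-fold lower, and Homer2, Slco3a1, Nbea, Gca, Stxbp6, Ica1, Dab2 and Nptx1 were 4.81-fold to 15.4-fold lower.

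All 11 signalling genes of the 68 were under 1 CPM in KPC142. Bmp2 (chromosome 2), a secreted ligand of the bone morphogenetic protein family, had 6 counts (0.3595 CPM) against 31.4, 2.72, 8.25, 7.77 and 7.11, highest in KPC180, and the nearest line was 7.58-fold higher (interval 3.25 to 21.6). Over 23 genes of the TGF-beta and BMP list, 4 (17.4%) were highest and 7 (30.4%) lowest, against 18.2% and 22.2% of all genes. Id1, Id2 and Id3, targets of BMP signalling, were 3 of the 4 highest by small margins, with Id1 at 318 CPM against 229, 149, 165, 276 and 235. Pag1, Rgs2, Stk39, Syk, Flt4, Gab1, Map3k9, Dok7, Rgs11 and Arhgdig made up the rest. Flt4, the receptor of lymphatic growth factors, and the adaptor gene Gab1 had 0 counts, but KPC469 and KPC490 for Flt4, and KPC850 for Gab1, were near 1 CPM as well. The kinase gene Syk had 0.599 CPM against 4.304 to 13.2, 7.18-fold (interval 3.71 to 15.6). Arhgdig and Rgs11 overlap on opposite strands, and both were lower. Fam220a, Tmem132a and Kbtbd11 fell in none of these groups, and Tmem132a had 11.03 CPM against 67.6 to 155. Fam220a is listed under 2 gene identifiers with identical transcript sequence, of which the other had 19.7 CPM in KPC142, the most of any line, so its place among the lower genes is uncertain.

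At the edge of the 4-fold rule, the higher genes just inside were Sprr1a (4.63), Sec1 (4.73) and Mt3 (5.01), and those just outside were Plscr2 (3.98), 4933421O10Rik (3.89) and Ggact (3.85). The lower genes just inside were Trps1 (4.05), Kbtbd11 (4.31) and Dtna (4.32), and those just outside were Bcl7a (3.998), Dip2c (3.95) and Adam12 (3.89). A stretch of transcript at least 90% identical to another gene was found for 2 of the 6 higher and 8 of the 68 lower genes, in Cdh16 over 225 bases. Another gene of at least 1 CPM overlapped 2 of the higher and 9 of the lower genes, among them Zzz3 with Ak5 and Atxn1 with Gmpr on the opposite strand. Whether counting used the strand is not given in the sources used here.

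Suclg2 and Fermt2, with 2 counts and 1 count in KPC142, differ in the sequence before their start. The 250 bases upstream of a RefSeq start (GRCm38.p6) are shown for both, 5′ to 3′ on the gene's own strand with CG pairs in capitals. Suclg2 had 8 such pairs and Fermt2 had 31. Cpne8, between them by ratio and also at 1 count, had 28 and is not shown. Where a gene had several starts, the one with the most CG pairs was taken.
Suclg2, chr6:95718847-95719096, - strand: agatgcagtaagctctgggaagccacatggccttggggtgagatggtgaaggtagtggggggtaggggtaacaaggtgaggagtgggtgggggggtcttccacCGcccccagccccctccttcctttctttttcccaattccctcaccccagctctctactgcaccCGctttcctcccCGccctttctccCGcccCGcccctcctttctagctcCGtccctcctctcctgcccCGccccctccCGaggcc
Fermt2, chr14:45530066-45530315, - strand: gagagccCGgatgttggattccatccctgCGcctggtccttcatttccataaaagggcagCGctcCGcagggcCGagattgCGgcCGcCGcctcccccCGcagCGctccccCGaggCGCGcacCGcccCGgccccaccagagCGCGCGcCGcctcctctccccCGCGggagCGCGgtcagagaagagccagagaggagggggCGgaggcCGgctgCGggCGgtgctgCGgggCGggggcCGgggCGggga
RefSeq promoters were at hand for 47 of the 68 lower genes and 7826 of the 9875 genes at the level. With 69.1% and 79.3% of the genes covered, unequal coverage limits a comparison of CG content between the sets. Among covered genes the median was 18 CG pairs in both sets. The ratio of CG pairs to the number expected from base content was 0.6 or more for 59.6% and 78.3%. This difference was not tested. Methylation was not measured.

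Beyond single genes, 48 gene lists were read across the 6 lines, and 47 had members at the level. Of these, 1 had a median log2 ratio of 0.5 or more in KPC142, 5 had -0.5 or less, and 41 lay between. Of the 74 genes, 14 were on a list. The share of all 9875 genes that is on a list was not counted.

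**Figure D3:**
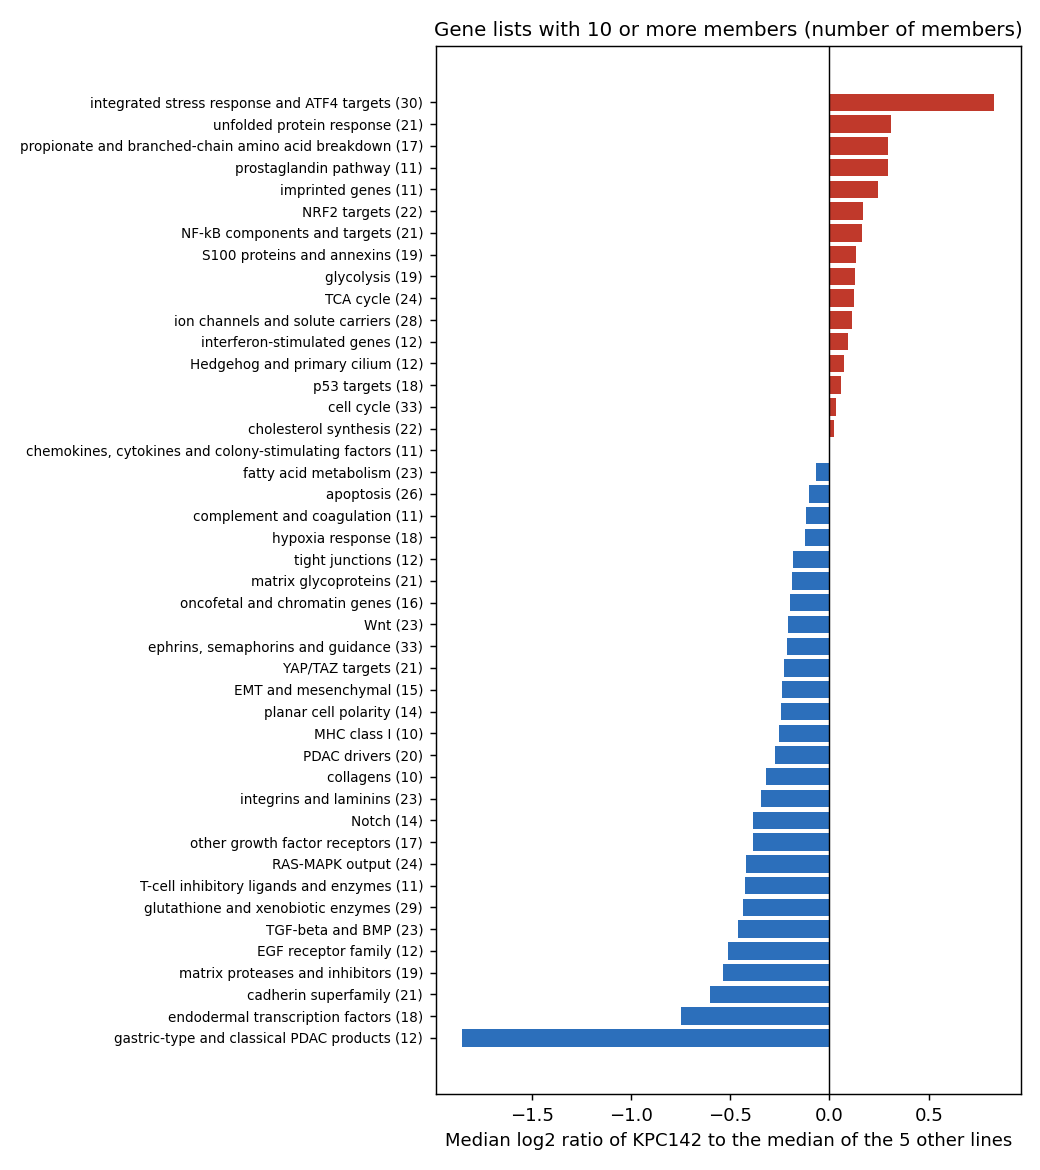
Median over the members of each gene list of the log2 ratio of KPC142 to the median of the 5 other lines, for lists with 10 or more members at the level (number in brackets). The list of integrated stress response genes is at the top with 0.83, and that of gastric-type products at the bottom with -1.85.

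Genes of the integrated stress response made up the list with the highest median in KPC142. Of 30 members at the level, 12 (40.0%) were highest in KPC142 and 1 lowest, against 18.2% and 22.2% of all genes, and the median log2 ratio was 0.83 against -0.02. None was 2-fold above the next line. Trib3 (ENSMUSG00000032715, chromosome 2), a pseudokinase induced by ATF4, had 74.1 CPM against 14.3, 57.9, 38.4, 8.78 and 17.8. It stood well above KPC180, KPC630 and KPC850, but KPC469 was near, and the ratio was 1.28 (interval 1.18 to 1.39). Without KPC469 its log2 ratio to the nearest line went from 0.36 to 0.95. Nupr1, a stress-induced nuclear protein, had 125 CPM against 12.9, 75.1, 35.3, 21.9 and 21.98, again followed by KPC469. Sesn2, an inhibitor of growth signalling, had 33.6 CPM against 8.68, 14.1, 18.5, 7.99 and 6.88, and Atf4 itself had 572 against 387, 463, 321, 341 and 327. Asns, the asparagine synthetase gene, had 282 against 106, 230.3, 152, 91.4 and 119, and Chac1, which degrades glutathione, 32.3 against 12.2, 21.3, 16.3, 6.65 and 7.11. Stc2, a secreted stanniocalcin, went the other way, with 2.64 CPM against 2.85, 162, 94.3, 39.8 and 35.2, the lowest of the 6 next to KPC180.

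KPC469 shared this pattern. It too was highest for 12 of the 30 genes, its median log2 ratio to the other lines was 0.80, and KPC142 exceeded it for 16 of the 30. KPC142 was above KPC180 for 28, KPC630 for 27, KPC850 for 26 and KPC490 for 22. Each of these 2 lines was first or second of the 6 for 23 genes.

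**Figure D4:**
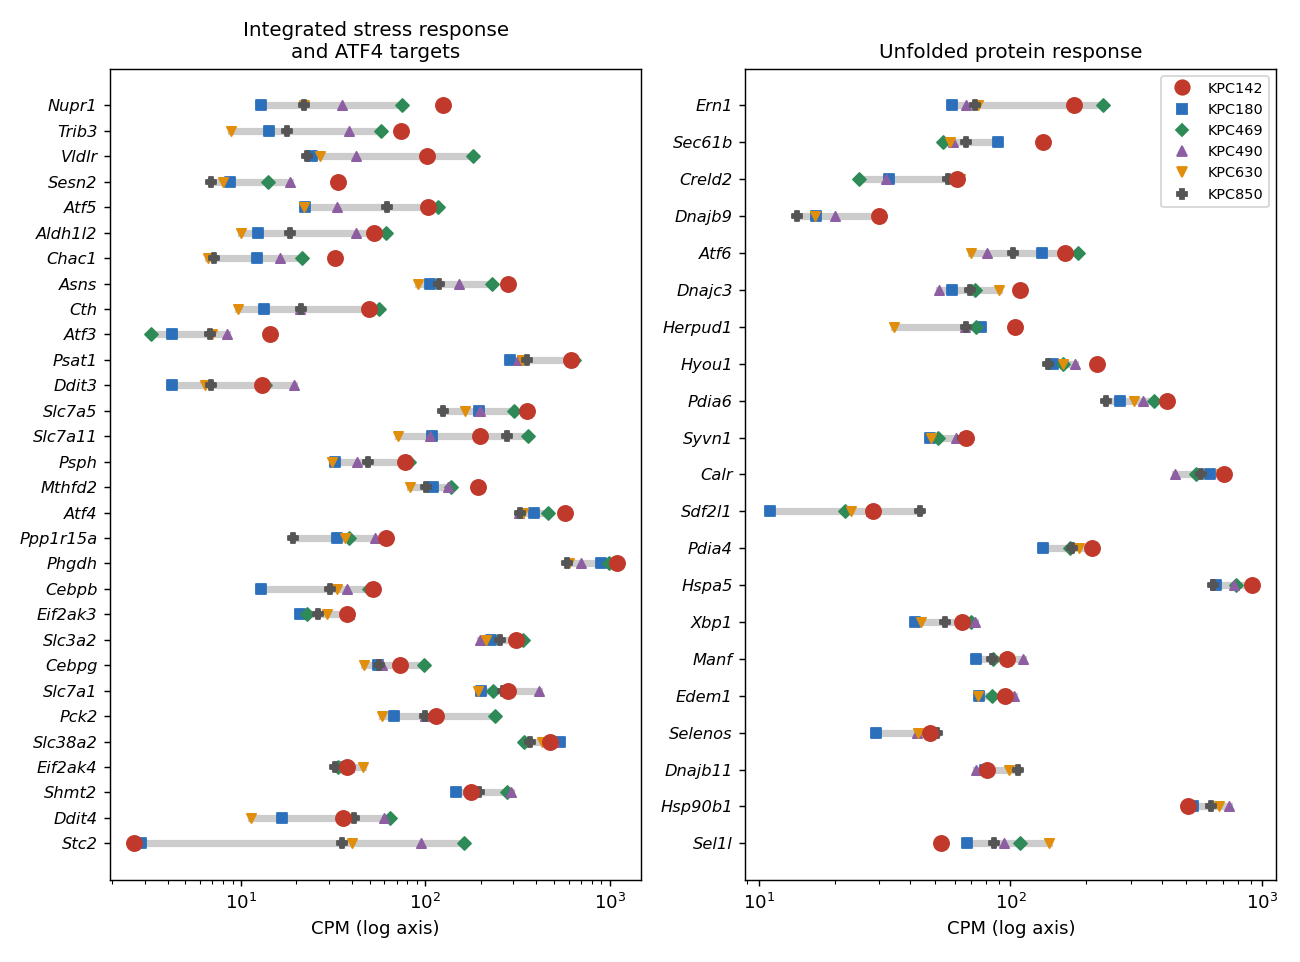
CPM in each line, on log axes, of the 30 integrated stress response genes (left) and the 21 unfolded protein response genes (right), ordered by the ratio of KPC142 to the median of the other lines. Grey bars span the 5 other lines. KPC142 lies beyond the right end of the bar for 12 genes on the left, where KPC469 is highest for another 12, and for 9 on the right, and it is lowest for Stc2, Hsp90b1 and Sel1l.

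Genes of the unfolded protein response followed with smaller differences. Of 21 members, 9 (42.9%) were highest in KPC142 and 2 (9.52%) lowest, against 18.2% and 22.2% of all genes. The median log2 ratio was 0.31. Here KPC469 was not beside it: that line was highest for 3 and had a median of 0.00. The differences from the next line were small and largest for Sec61b, 1.501-fold over the next line, a translocon subunit on chromosome 4 (134 CPM against 89.5, 53.9, 59.2, 57.3 and 66.6). Herpud1, of degradation at the endoplasmic reticulum, had 105 CPM against 76.5, 72.9, 65.9, 34.6 and 66.5, and the co-chaperone gene Dnajc3 109 against 58.7, 71.97, 52.2, 89.7 and 69.1. For Hspa5, the chaperone BiP, KPC142 and KPC630 were level, at 913 CPM against 655, 788, 771, 911 and 635. Sel1l and Hsp90b1 were the 2 lowest members, with Sel1l at 52.9 CPM against 67.1, 109, 94.5, 143 and 86.04. No replicate error is at hand for gaps of this size.

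The ER stress response element, the sequence through which ATF6 acts on chaperone genes, was searched as CCAAT, 9 bases of any kind and CCACG, on both strands of the 250 bases before each RefSeq start. It was found for 8 of 19 unfolded protein response genes with an entry and for 0.13% (35 of 27025) of all genes. Of the 8 genes, Hspa5, Pdia6, Dnajc3, Syvn1 and Calr were highest in KPC142, Hsp90b1 was lowest, Creld2 was neither, and Derl3 did not reach the level. Over the whole list 9 of 21 (42.9%) were highest, against 18.2% of all genes, and Hspa5 was level with KPC630. Whether genes with a match differ from the rest of the list was not tested. The stretch with the match in capitals, 20 bases on each side, is shown for the 5 highest genes from GRCm38.p6, 5′ to 3′ on the gene's strand. Calr carries the match on the opposite strand.
Hspa5, chr2:34772005-34772063, + strand: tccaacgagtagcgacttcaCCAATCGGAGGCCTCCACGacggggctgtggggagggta
Pdia6, chr12:17266471-17266529, + strand: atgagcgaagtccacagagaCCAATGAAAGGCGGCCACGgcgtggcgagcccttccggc
Dnajc3, chr14:118937807-118937865, + strand: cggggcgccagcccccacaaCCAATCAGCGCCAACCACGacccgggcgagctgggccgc
Syvn1, chr19:6046512-6046570, + strand: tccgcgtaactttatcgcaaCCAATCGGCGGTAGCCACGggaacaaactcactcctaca
Calr, chr8:84847055-84847113, - strand: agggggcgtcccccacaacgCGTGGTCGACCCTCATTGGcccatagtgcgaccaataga
The C/EBP-ATF response element was searched likewise as TGATGNAAT, where N is any base. With the last base fixed as T, elements that end in another base were not counted, so a gene without a match may still carry such an element. This fixed form was found for 1 of 29 integrated stress response genes, Nupr1, and for 0.91% (246) of all genes. This only match of the list is shown, and it lies on the strand opposite to the gene's.
Nupr1, chr7:126625553-126625601, - strand: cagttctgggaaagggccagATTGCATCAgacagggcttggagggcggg
A match is a run of letters, not a measured binding site.

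Gastric-type and classical PDAC products were the list with the lowest median in KPC142. Of 12 members at the level, 0 were highest there and 4 (33.3%) lowest, against 18.2% and 22.2% of all genes. Of these 4, 3 were lowest by 2-fold or more, and the list's median log2 ratio was -1.85. Cldn18, a tight junction protein of stomach, had 1.32 CPM against 504, 361, 408, 457 and 1.75, so KPC850 was as low as KPC142 while the other 4 lines exceeded 360 CPM. The secreted protease gene Ctse had 21.6 CPM against 437, 43.5, 71.3, 119 and 246, and the mucin gene Muc1 20.2 against 115, 40.5, 43.5, 64.8 and 264. Ceacam1 had 1.56 CPM against 3.398, 3.32, 65.98, 18.9 and 21.4, low in KPC180 and KPC469 too. The sum over the 22 listed genes found was 662 CPM in KPC142 and 1596 to 2491 CPM in the other lines.

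Endodermal transcription factors were low in the same library. Of 18 members at the level, 8 (44.4%) were lowest in KPC142 and 1 (5.56%) highest, against 22.2% and 18.2% of all genes. The median log2 ratio was -0.75, or -0.48 without KPC490. Besides Foxa1, Sox9 had 4.55 CPM against 10.01, 43.4, 31.1, 23.5 and 41.6, Onecut3 0.719 against 13.96, 7.68, 13.997, 7.45 and 2.33, and Gata6, a factor of classical PDAC, 19.2 against 86.7, 25.7, 53.4, 25.98 and 62.95. Hnf4a was inside the range of the other lines at 327 CPM against 84.3 to 421.

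Of 12 EGF receptor family genes at the level, 1 (8.33%) was highest and 4 (33.3%) lowest in KPC142, against 18.2% and 22.2% of all genes, and the median log2 ratio was -0.51, or -0.28 without KPC630. Of 17 other growth factor receptor genes, 1 (5.88%) was highest and 3 (17.6%) lowest. Egfr, the receptor of epidermal growth factor, had 6.95 CPM against 31.7, 24.03, 41.6, 89.2 and 37.5, 3.46-fold below KPC469 (interval 2.81 to 4.28). Its ligand gene Hbegf had 47.8 against 225, 62.98, 102, 83.8 and 102, whereas Nrg1, a ligand of other receptors of the family, was highest at 31.6 against 0.243, 26.6, 4.36, 20.9 and 10.9. Of 24 RAS-MAPK output genes, 10 (41.7%) were lowest in KPC142 and 1 highest, with a median log2 ratio of -0.42. The phosphatase gene Dusp6, induced by ERK, had 78.8 CPM against 251, 177, 389, 135 and 149, and the ephrin receptor gene Epha4 8.15 against 138, 20.3, 80.9, 88.4 and 109. Of 20 PDAC driver genes, 12 (60%) were lowest in KPC142 and 3 highest, but none by 2-fold. Trp53 had 143 CPM against 169, 218, 195, 259.6 and 210.5, and Mtap, next to Cdkn2a, 95.8 against 139.9, 226, 252, 216 and 192.

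Single genes of several other lists also lay at an extreme in KPC142, and in some of these lists other members did too. Of 19 glycolysis genes, 26.3% were highest and 0 lowest. The shares were 12.5% and 31.2% of 16 oncofetal and chromatin genes, and 22.7% each of 22 NRF2 targets. Over all genes they were 18.2% and 22.2%. Nqo1, an NRF2 target, was 2.29-fold above the next line, at 48.3 CPM against 12.1, 18.2, 5.401, 21.1 and 10.5, while Gsta4, another, was lowest at 81.2 against 104, 139.8, 363, 377 and 566. The water channel gene Aqp1 was highest at 302 CPM against 10.6, 36.7, 9.99, 76.8 and 158, and Fabp5, a fatty acid carrier, lowest at 1.98 against 5.95, 14.98, 107, 87.8 and 67.4. The interleukin-1 receptor antagonist gene Il1rn was lowest at 18.4 against 28.7, 54.5, 840.0, 227 and 259, and Nfkbiz, a nuclear regulator of NF-kB, at 45.7 against 123, 76.4, 122, 107 and 160.5. Twist1, a mesenchymal transcription factor gene, was highest at 42.4 against 0.728, 0.436, 24.3, 13.8 and 12.4, while Cdh2, often raised with it, was among the 68. Hmga2 was lowest at 88.6 against 519, 214, 416, 344 and 159, and Clu, of the complement list, at 1091 against 4919.9, 1776, 2509.7, 2198 and 3509. Pfkp, a phosphofructokinase, was highest at 157 against 17.5, 106, 77.8, 42.9 and 43.4. No member of the MHC class I, interferon, hypoxia, apoptosis or YAP/TAZ lists was 2-fold beyond the other lines. Pcdh7, the protocadherin named in the study's title, was neither highest nor lowest, at 4.31 CPM against 109, 0.109, 47.6, 3.78 and 132. All 35 Hox genes listed were under 1 CPM in every line.

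Levels in KPC142 also differed by chromosome. Of 617 chromosome 4 genes at the level, 424 (68.7%) were highest in KPC142 and 37 (5.997%) lowest, with a median log2 ratio of 0.58. The other lines had chromosome 4 medians of -0.33 to 0.06. Medians in KPC142 were -0.26 to -0.37 on chromosomes 10, 11, 14, 16, 17 and 18, where 39.6% to 51.7% of the genes were lowest. Chromosome 8, which holds Cdh16 and Mt3, had a median of 0.35, with 24.4% highest and 4.50% lowest. Other lines had shifts of that size too, among them 0.49 for KPC180 on chromosome 8 and 0.43 for KPC490 on chromosome 10. Of the 53 genes at least 2-fold above all other lines, 14 (26.4%) were on chromosome 4, which holds 6.25% of the genes, but 0 of the 6 at 4-fold were. Of the 12 integrated stress response genes highest in KPC142, Sesn2 lay on chromosome 4, and of the 9 unfolded protein response genes, Sec61b did. At least Calr of those 9 lay on chromosome 8, where the median of 0.35 was also raised. The other chromosomes were not counted for these genes. DNA copy number was not measured.

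**Figure D5:**
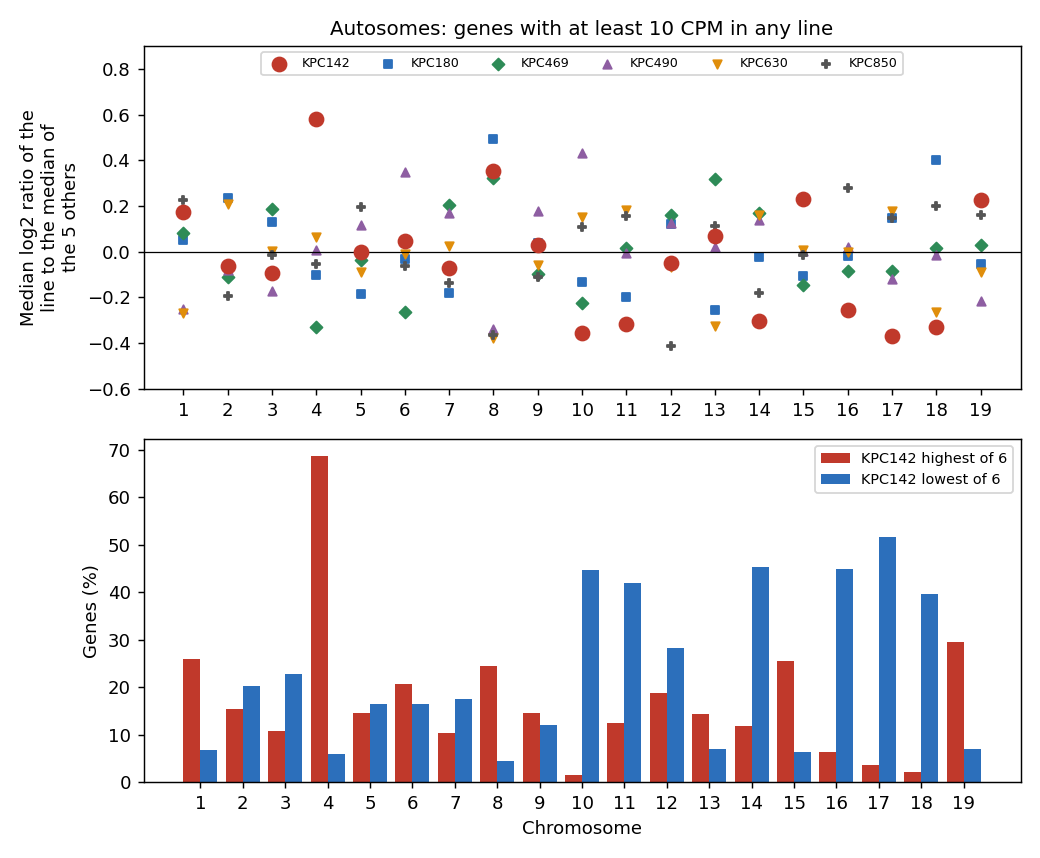
Upper panel: median over the genes of each autosome of the log2 ratio of a line to the median of the 5 others, for all 6 lines. Lower panel: percent of genes on each autosome for which KPC142 was the highest or the lowest line, as bars from 0. Chromosome 4 stands apart with a median of 0.58 and 68.7% of its genes highest in KPC142.

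The 68 lower genes were spread over 18 of the 19 autosomes, with 0 on chromosome 16. Chromosome 3 had 9 (1.76% of its genes at the level) and chromosome 12 had 6 (1.68%), against 0.689% overall. Only 3 pairs were direct neighbours among genes at the level. One stretch of chromosome 3 held 3 lower genes in a row, Zbtb10, Zfp704 and Pag1, the last encoding a membrane adaptor of Src-family kinases. Pag1 had 1 count (0.0599 CPM) against 1.396, 1.25, 27.6, 46.5 and 1.17, low in KPC180, KPC469 and KPC850 as well. Fabp5, the next gene, was 3.01-fold below KPC180. Outside it the levels were ordinary: Tpd52, before Zbtb10, had 206 CPM against 102 to 232, and Impa1, beyond Fabp5 and a further gene, had 127 against 105 to 140.1. Clca3a1, Ddah1, Adgrl2 and Ak5 lay farther along chromosome 3 with 5, 8 and 7 genes between them. The nearest neighbours of the 68 genes comprised 134 distinct genes, and 13 of these had a log2 ratio of -1 or below. Without those that are themselves among the 68, 9 of 129 (6.98%) did, against 6.81% of all genes. Some of these 9 were far lower than that cutoff. Besides Fabp5 (-4.78) they included Kif21a beside Cpne8 (-4.68), Dsc2 beside Cdh2 (-4.02), Ttc9 beside Map3k9 (-3.44) and Clca3b beside Clca3a1 (-2.64). Suclg2 stood between Lrig1, at 27.3 CPM against 45.8 to 62.1, and Eogt, at 35.7 against 22.1 to 34.2.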

How the data were processed

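One deposited table was used, holding the authors' expected counts per gene for 6 libraries, 1 per line. Trimmomatic 0.36, STAR 2.7.10b, RSEM 1.3.3 and the GRCm39 build are listed, with no roles, in the submitters' processing notes. Libraries were stranded poly(A), per the labels' protocols. Expected counts were rounded to whole numbers. CPM used totals adjusted by edgeR 4.0.16 TMM factors (0.986 to 1.01) in R 4.3.3. A denominator of 0 counts was replaced by a floor of 3 counts, and log2 ratios to the median line had 0.5 CPM added. GENCODE vM21 (GRCm38) gave names, chromosomes and gene positions for 52029 of 56953 identifiers, and RefSeq gave the promoters. The GENCODE positions set gene order, neighbours and overlaps and are not printed. At the 10 CPM level, 306 genes on sex chromosomes, 9 on other sequences and 44 unnamed were left out. Of 1340 list entries 1331 were found. No test was made, since each line has 1 library, and DESeq2 1.42.0 size factors served as an alternative scaling. The fold rule and intervals were tested on simulated data.

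Named were the 5 genes Cdh16, Suclg2, Zfp704, Celsr1 and Trib3, the 74 genes (the 15 largest ratios in each direction and all on a list with every line's value), up to 3 extreme members per list, 3 genes on each side of the threshold, and neighbours. Paralogs, partner subunits, functional groups of the 68 genes, and the cell type markers and other list members named beside these were chosen after their values were seen. The genes and lists were chosen with earlier results of these data known.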

Additional observations from a re-analysis of the deposited data

How the results depend on the processing

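The counts of 6 higher and 68 lower genes depended most on the level and fold asked for. The higher genes numbered 17 at 5 CPM, 3 at 20 CPM, 138 with every gene of at least 1 count, 17 at 3-fold, 2 at 8-fold and 3 with the lower bound of the interval at 4-fold. The lower genes numbered 103 with every gene of at least 1 count, fewer than the higher ones there, 29 at 8-fold, 43 with 0.5 CPM added to every value, 38 by the interval's lower bound and 36 among genes kept by filterByExpr, which asks for counts in every line and so drops genes silent in KPC142. Asking for 10 CPM in every other line, a setting chosen after seeing the data, left 28. With 1 other line left out at a time the higher genes numbered 7 to 16 and the lower 73 to 101. DESeq2 size factors, library totals, unrounded counts, protein-coding genes only, the sex chromosomes and leaving out genes with a near-identical copy kept both counts within 1.5 times. Of the recomputed list medians, 425 moved by less than 0.2 and 45 by more, and no median of 0.5 or beyond changed sign. Of the recomputed ratios of Cdh16, Suclg2, Zfp704, Celsr1 and Trib3, 30 moved by less than 0.2 on the log2 scale, and the 5 that moved by more each left out the nearest line. No paired analysis was possible because each line has a single library. Genes with 1 to 3 counts in KPC142, 14 of the 68, have ratios known only within wide intervals.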

Other observations

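Outside the autosomes, KPC142 stood at least 4-fold apart from all other lines for further genes. Maob (X chromosome), monoamine oxidase B, had 53.7 CPM against 5.64, 0.490, 5.46, 3.62 and 11.2. Lower X-linked genes were Shroom2, an organiser of apical actin, with 0.599 CPM against 8.28 to 33.97, Tspan7, a tetraspanin, with 3.42 against 30.3 to 78.4, Mageh1 with 0.180 against 1.75 to 21.6, and Hs6st2, a heparan sulfate sulfotransferase gene, with 0 counts against 3.54 to 67.4. Xist, the RNA of X inactivation, had 0.120 CPM in KPC142 and 0.545 in KPC469, against 1124 CPM or more in the other 4 lines. The Y-linked genes Ddx3y and Eif2s3y had 10.2 and 11.6 CPM in KPC142 and 0 counts in every other line. An identifier that matched no gene name, ENSMUSG00000121513, had 0.240 CPM against 23.1 to 67.5, a 96.5-fold ratio.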
